A study of Mus musculus with 2 samples.

Results

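Gamma delta (γδ) T cells made up 60 of the 33222 cell barcodes in the 2 libraries, 24 of 15909 in the RP-6306 library and 36 of 17313 in the vehicle library. They were chosen from raw counts of unique molecular identifiers (UMIs), each of which stands for 1 captured transcript. A barcode had to hold 500 or more UMIs from 300 or more genes, with no more than 15% of them mitochondrial, and at least 1 UMI of the CD3 genes Cd3d, Cd3e and Cd3g together. It further needed at least 2 UMIs of Trdc, the constant region of the δ chain, or at least 1 UMI of Cd163l1, a scavenger receptor family gene (SCART1) of IL-17-producing γδ T cells. It also had to have 0 UMIs of Cd4, Cd8a and Cd8b1, 0 of the B cell genes Cd79a, Ms4a1 and Ebf1, and at most 1 of the NK cell genes Ncr1 and Klre1 and of the keratins Krt8 and Krt18. The levels of these genes in the members are therefore set by the choice and are given below as description.

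The libraries came from tumours of RM-1, a mouse prostate cancer line, injected subcutaneously into C57BL/6 animals and collected at day 10 of treatment with RP-6306, an inhibitor of the cell cycle kinase PKMYT1, or with vehicle. Both groups carry the genotype label WT and differ in the treatment given. CD45+ cells were sorted from each tumour, mixed 3 to 1 with tumour cells and sequenced from the 3′ end of transcripts with the SeekOne DD droplet kit. The design names 2 tumour-bearing mice, 1 library was made per group, and neither the number of mice per library nor the dose is stated, so no difference between the treatments has a replicate check and none is tested. Intervals are exact 95% intervals and cover counting error only.

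γδ T cells carry a T cell receptor made of a γ and a δ chain in place of α and β, and most of them have neither CD4 nor CD8. In mice they fall into groups that are set in the thymus and use particular variable (V) segments: one group makes interleukin 17 (IL-17), responds to IL-1 and IL-23 and lives in tissues, while another makes interferon γ, can kill, and recirculates. In tumours, IL-17-producing γδ T cells are known for recruiting myeloid cells, and those of the interferon type for attacking tumour cells.

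V segments were seen in some members, and the ends of 5 of them are printed because the last bases border the junction with the next segment. Trdv4, Tcrg-V6 and Trdv5 are those by which the members differed among themselves, and Trgv2 and Tcrg-V4 are γ segments seen in members of every kind. Each line gives the final 90 bases of the germline segment, from the GENCODE transcript on GRCm38, the assembly of mm10, with its last 12 bases in capitals. Trdv4 lies at chr14:54074905-54075515 on the plus strand, Tcrg-V6 at chr13:19190356-19190929 on the plus strand, Trdv5 at chr14:54148662-54149294 on the minus strand, Tcrg-V4 at chr13:19184974-19185506 on the plus strand and Trgv2 at chr13:19336573-19337167 on the minus strand.
Trdv4: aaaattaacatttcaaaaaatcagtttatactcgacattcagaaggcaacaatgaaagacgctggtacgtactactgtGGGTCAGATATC
Tcrg-V6: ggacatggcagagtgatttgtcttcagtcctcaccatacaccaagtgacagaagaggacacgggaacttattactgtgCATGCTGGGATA
Trdv5: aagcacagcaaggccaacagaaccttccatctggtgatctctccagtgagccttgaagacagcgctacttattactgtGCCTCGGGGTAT
Tcrg-V4: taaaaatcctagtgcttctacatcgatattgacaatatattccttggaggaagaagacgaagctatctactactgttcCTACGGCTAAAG
Trgv2: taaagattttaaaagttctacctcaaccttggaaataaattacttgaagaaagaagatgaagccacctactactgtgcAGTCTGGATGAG
The annotated bounds of Trdv5 and Trdc overlap on opposite strands, and the sources used here do not say whether the counting used strand, so UMIs of one could have been counted for the other. The constant genes Tcrg-C1, Tcrg-C2 and Tcrg-C3 are 94.47% to 96.92% identical over their aligned bases, so the split of UMIs among them is uncertain. The same holds for Trgv2, which is 94.92% identical to Tcrg-V1 and 94.29% to Tcrg-V3.

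The members held 60458 UMIs in the RP-6306 library and 98448 UMIs in the vehicle library. Their median was 2262 UMIs per cell in the RP-6306 library (1230 to 4667) and 2637.5 in the vehicle library (1231 to 4832), so they were somewhat shallower after RP-6306. T cells with Cd4 had medians of 2579 and 2931 UMIs, and T cells with Cd8a or Cd8b1 had 2972.5 and 3384 UMIs, in the RP-6306 and the vehicle library. The matrices shared 374 barcodes, which is 1 RP-6306 member and 0 vehicle members, and 0 barcodes were members in both. Markers of other lineages were low but not all at 0 in the members. The 7 neutrophil genes and the 4 haemoglobin genes had 0 UMIs in either library, and so had the regulatory T cell gene Foxp3. The 13 myeloid genes held 12 UMIs in RP-6306 and 22 UMIs in vehicle members, 198 and 223 CPM (UMIs divided by all UMIs of the class and scaled to 1000000), against 606 and 279 CPM in CD4 T cells, with 8 of them at 0, among these C1qa, C1qb, C1qc and Csf1r. The 10 B cell genes held 5 and 27 UMIs, 82.7 and 274 CPM, against 380 and 237 CPM in CD4 T cells, with 5 at 0, of which the choice set Cd79a, Ms4a1 and Ebf1. The 10 tumour genes held 7 and 19 UMIs, 116 and 193 CPM, against 125 and 205 CPM in CD4 T cells. Their part in the results below was not tested. The 11 NK genes summed to 364 and 173 CPM in RP-6306 and vehicle members, against 9329 and 8565 CPM in NK cells, with Ncr1, Klra8 and Klra9 at 0.

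The label was borne out by receptor genes for most members. Trac, the α chain constant gene, was at 33.1 CPM in RP-6306 members and 112 CPM in vehicle members, against 407 and 373 CPM in CD4 T cells and 307 and 277 CPM in CD8 T cells of the RP-6306 and the vehicle library. A UMI of a γ or δ segment other than Trdc was found in 21 of 24 RP-6306 members and in 26 of 36 vehicle members. No V or constant gene of the γ or δ chain, Trdc included, was seen in 0 RP-6306 members and 7 vehicle members. All 7 had entered by Cd163l1, and 2 of them held Trac, so their receptor is not shown by these counts. Trbc2, a β chain constant gene, was at 777 CPM in RP-6306 members and 650 CPM in vehicle members, near the 733 to 846 CPM of CD4 and CD8 T cells. Trbc2 therefore did not separate γδ from other T cells here, while Trac did.

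The choice keeps a part of the γδ signal. Members held 21.8% of the 220 Trdc UMIs of the RP-6306 library and 22.4% of the 272 of the vehicle library. Just outside the threshold, 29 RP-6306 and 18 vehicle T cells without Cd4, Cd8 and Cd163l1 had exactly 1 Trdc UMI, and just inside it 8 and 10 had exactly 2. Those just outside held Trac at 263 and 61.0 CPM and those just inside at 87.4 and 41.4 CPM. Cd163l1 was at exactly 1 UMI in 3 RP-6306 and 7 vehicle members. Among T cells with Cd4 or Cd8 UMIs, which should lack a γδ receptor, 24 of 3042 in the RP-6306 library (0.789%) and 22 of 2456 in the vehicle library (0.896%) also met the Trdc or Cd163l1 condition. Of these, 18 and 20 had Cd163l1, as 7 RP-6306 members and 20 vehicle members did. The Cd163l1 cells with Cd4 or Cd8 held 0 UMIs of Trdv4, Tcrg-V6, Il23r and Il17a in either library, and Trac at 262 and 231 CPM. Members with Cd163l1 held 21 and 63 UMIs of Trdv4, 6 and 12 of Tcrg-V6, 8 and 37 of Il23r and 0 and 35 of Il17a. Their Trac was at 0 and 139 CPM. Members without Cd163l1 also held 0 UMIs of Trdv4 and Tcrg-V6. Klrd1 was at 290 and 219 CPM in the Cd163l1 cells with Cd4 or Cd8, and at 432 and 341 CPM in members without Cd163l1. In B cells, 2 of 3645 and 3 of 3736 met the condition. In NK cells, 0 of 76 in the RP-6306 library and 3 of 207 in the vehicle library (1.45%) met it. With so few NK cells, the upper bounds of these shares were 4.74% and 4.18%.

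γδ T cells were a smaller share of T cells in the RP-6306 library. They were 24 of 4766 T cells of the same exclusions, 0.504% (0.323 to 0.748), in the RP-6306 library and 36 of 3805, 0.946% (0.664 to 1.31), in the vehicle library. The ratio of the shares, RP-6306 over vehicle, was 0.532 (0.304 to 0.917). As a share of all barcodes that passed the filters they were 0.151% after RP-6306 and 0.210% after vehicle, and the interval of that ratio, 0.410 to 1.24, includes 1. With each T cell thinned to 1000 UMIs, which takes away the advantage of deeper cells, 5 of 3307 RP-6306 T cells (0.151%) and 19 of 2654 vehicle T cells (0.716%) met the rule, with 661 and 2125 shallower barcodes of the libraries left out. With at least 1 UMI of Trdc or another γ or δ segment required, a condition chosen after the data were seen, the vehicle share was 0.762% and the RP-6306 share stayed at 0.504%. This left 29 vehicle and 24 RP-6306 members. The 7 members removed were all vehicle cells, so the size of the difference depends in part on them. The interval of this ratio was not computed.

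The 2 ways into the population gave cells that differed in number between the libraries. Members with Cd163l1, called Cd163l1 cells here, were 7 in the RP-6306 library and 20 in the vehicle library, 0.147% and 0.526% of T cells, with a ratio of 0.279 (0.0998 to 0.688). Members with at least 2 Trdc UMIs and no Cd163l1, called Trdc cells, were 17 and 16, 0.357% and 0.420% of T cells, with a ratio of 0.848 (0.403 to 1.79). With the 7 vehicle Cd163l1 cells that held no γ or δ gene left out, a step taken after the data were seen, the Cd163l1 cells were 7 and 13, 0.147% and 0.342% of T cells, and the ratio was 0.430 with an interval that includes 1 (0.145 to 1.16). The Cd163l1 cells thus held most of the difference in number. Cd163l1-positive T cells with Cd4 or Cd8 were nearly the same in number, 18 in the RP-6306 and 20 in the vehicle library. They were out of 3042 and 2456 T cells with Cd4 or Cd8, so as a share they were lower after RP-6306 too.

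**Figure D1:**
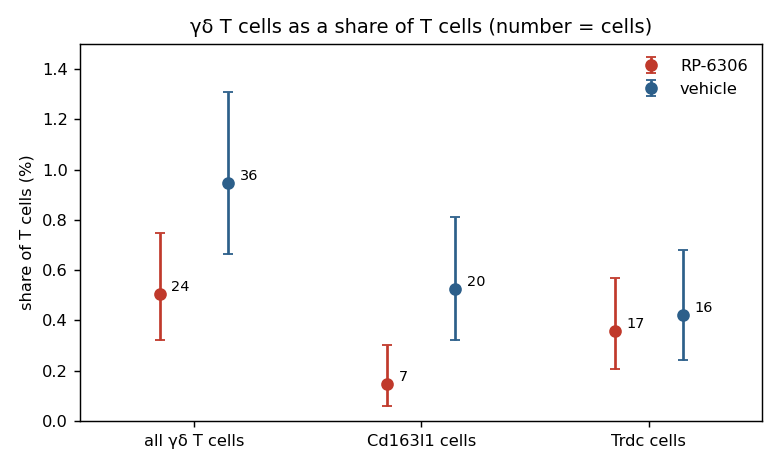
Share of T cells (percent, vertical axis from 0) that were γδ T cells, Cd163l1 cells and Trdc cells, with RP-6306 in red and vehicle in blue. Points are the shares of single libraries, bars are exact 95% binomial intervals and the numbers are cells: the Cd163l1 cells were 0.147% and 0.526%, while the Trdc cells were 0.357% and 0.420%.

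Cd163l1 cells and Trdc cells differed in their δ segments. Trdv4, the germline δ segment of receptors with Tcrg-V6, was present in 5 of 7 RP-6306 and 10 of 20 vehicle Cd163l1 cells and in 0 of 17 and 0 of 16 Trdc cells. Tcrg-V6 was present in 4 of 7 and 6 of 20 Cd163l1 cells, all of which also held Trdv4, and in 0 Trdc cells of either library. Trdv5 showed the opposite pattern, in 7 of 17 RP-6306 and 4 of 16 vehicle Trdc cells and in 0 Cd163l1 cells. The choice of members used neither Trdv4 nor Tcrg-V6, but Trdc cells were chosen by Trdc UMIs, and Trdv5 overlaps Trdc, so how far the choice set the count of Trdv5 was not tested. Trdc itself was present in 3 of 7 and 8 of 20 Cd163l1 cells, with Trdv5 in 0 of these 11 cells. No member held both Trdv4 and Trdv5.

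Of the γ segments Trgv2 was seen in the most members and on both sides, in 3 of 7 RP-6306 and 8 of 20 vehicle Cd163l1 cells and in 6 of 17 and 5 of 16 Trdc cells, at 232 CPM in RP-6306 and 183 CPM in vehicle members. Tcrg-V4 was found in 2 of 7 RP-6306 and 1 of 20 vehicle Cd163l1 cells and in 6 of 17 and 3 of 16 Trdc cells. Tcrg-V1 was found in 2 Trdc cells of each library. More than 1 γ segment was counted in 6 of 24 RP-6306 and 9 of 36 vehicle members, so a single cell's γ chain cannot be read from these counts. Tcrg-C1, which follows Tcrg-V6 and Tcrg-V4 on chromosome 13, was in 3 of 7 and 9 of 20 Cd163l1 cells and in 2 of 17 and 0 of 16 Trdc cells. Trdv2-1, Trdv3 and Tcrg-C3 had 0 UMIs in the members.

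Between the libraries, Trdv4 was at 347 CPM in RP-6306 and 640 CPM in vehicle members (-0.88, -1.67 to -0.15) and at 0.22 (-0.57 to 0.95) within Cd163l1 cells. Trdv5 was at 281 and 71.1 CPM (1.97, 0.64 to 3.50) and at 1.17 (-0.17 to 2.69) within Trdc cells, and Tcrg-V4 at 248 and 60.9 CPM (2.01, 0.58 to 3.68). These are log2 ratios of RP-6306 over vehicle. The ratio of Trdv4 within Cd163l1 cells includes the 7 vehicle cells with no γ or δ gene, which lower its vehicle CPM.

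The members held a part of the UMIs of these segments in each library. They held 26.2% of the Trdv4 UMIs of the RP-6306 library and 34.8% of those of the vehicle library, in 5 of 45 and 10 of 85 cells with the gene. The shares were 60% and 46.2% for Tcrg-V6, 29.8% and 14.6% for Trdv5, 22.4% and 9.23% for Tcrg-V4, and 20.3% and 14.4% for Trgv2. Of the other cells with Trdv4, 35 RP-6306 and 59 vehicle cells held no CD3 UMI. Per cell these segments were rare in B cells. In B cells, Tcrg-V6 had 0 UMIs, and Trdv4 was seen in 0.137% of RP-6306 and 0.214% of vehicle cells, at median depths of 1983 and 2230.5 UMIs. Trdv5 was seen in 0.110% and 0.0268% of B cells. NK cells held Trdv4 at 78.0 CPM in the RP-6306 library and 34.9 CPM in the vehicle library, against 1278 and 1097 CPM in Cd163l1 cells. The list of γ and δ V genes summed to 113 and 66.7 CPM in NK cells of the RP-6306 and the vehicle library. It summed to 1158 and 1056 CPM in members and to 9.74 and 8.34 CPM in CD4 T cells. The segments were thus not confined to γδ T cells. With the members thinned to 1000 UMIs, Trdv4 was still seen in 3 RP-6306 and 8 vehicle members and Trdv5 in 5 and 1.

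**Figure D2:**
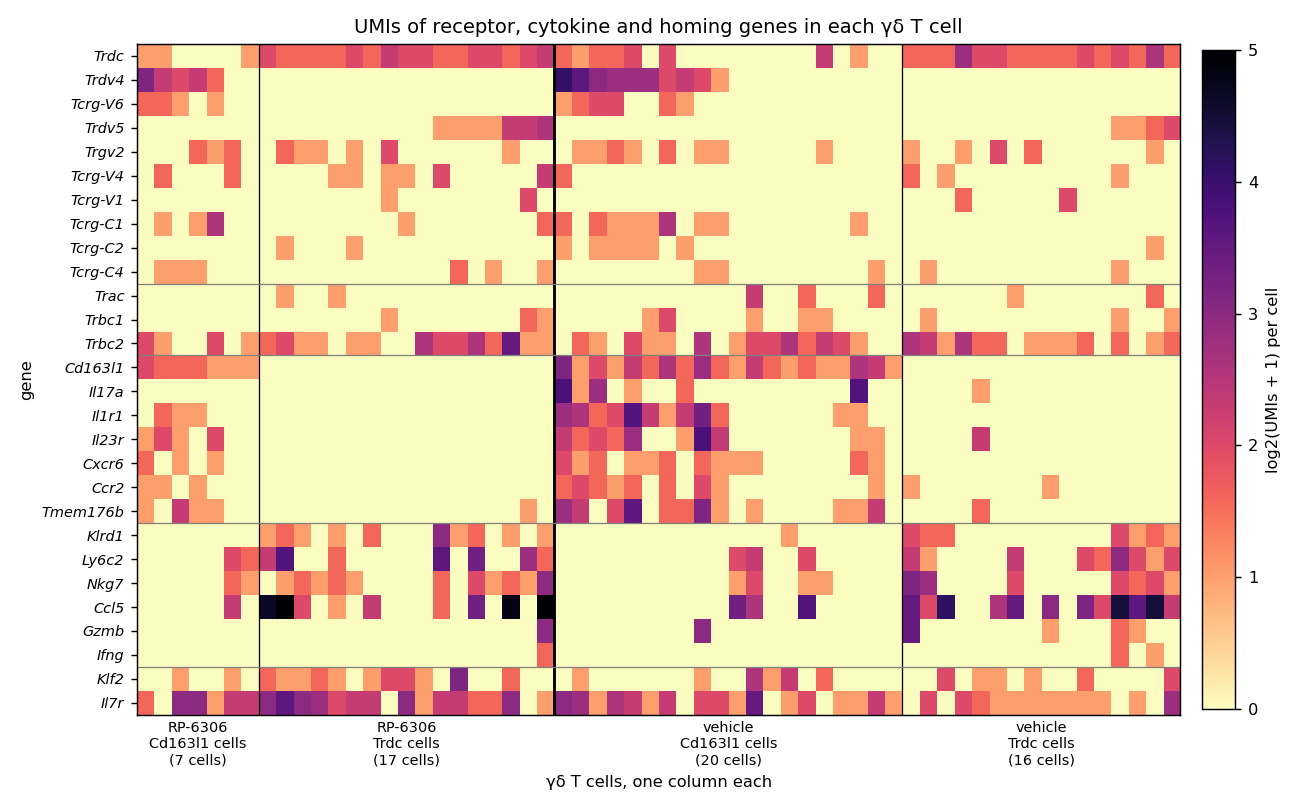
UMIs of 28 genes (rows, grouped as γδ receptor, αβ receptor, IL-17, interferon γ and killing, and homing genes) in each of the 60 γδ T cells (columns), as log2(UMIs + 1). RP-6306 cells are left of the thick line and vehicle cells right of it: Trdv4, Il1r1 and Cxcr6 lie in Cd163l1 cells, while Trdv5 lies in Trdc cells.

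Genes of the IL-17 programme lay in Cd163l1 cells of both libraries. Il1r1, the receptor for IL-1, had 4 UMIs in 3 of 7 RP-6306 and 50 UMIs in 12 of 20 vehicle Cd163l1 cells, and 0 UMIs in the Trdc cells of either library. Its level in Cd163l1 cells was 243 CPM (66.3 to 623) and 871 CPM (646 to 1148), and in the Trdc cells the upper bounds were 83.8 and 89.9 CPM. Il1r1 was seen in 1.67% and 2.70% of B cells, at median depths of 1983 and 2230.5 UMIs, against 3 of 24 and 12 of 36 members. The whole RP-6306 and vehicle libraries held 10189 and 9715 UMIs of Il1r1, and 374 and 426 other CD3-positive barcodes held it. The part of free RNA or doublets in the members' Il1r1 UMIs was not tested.

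Il23r, the receptor subunit specific for IL-23, was at 487 CPM (210.1 to 959) in RP-6306 and 644 CPM (454 to 888) in vehicle Cd163l1 cells. In Trdc cells it had 0 UMIs in the RP-6306 library and 4 UMIs, all in 1 cell, in the vehicle library. CD4 T, CD8 T, NK and B cells of both libraries had at most 1.47 CPM of it. It was not confined to members: other T cells held 17 UMIs in 6 RP-6306 cells and 60 UMIs in 16 vehicle cells. T cells without Cd4, Cd8, Trdc and Cd163l1 held 16 UMIs in 5 RP-6306 cells and 54 UMIs in 13 vehicle cells. Cxcr6, a chemokine receptor of tissue-resident lymphocytes, had 4 and 18 UMIs in the Cd163l1 cells and 0 in the Trdc cells of both libraries. Ccr2, a receptor for monocyte-attracting chemokines, was at 183 and 296 CPM in Cd163l1 cells and at 0 and 48.8 CPM in Trdc cells of the RP-6306 and the vehicle library.

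Further genes outside the rule had the same distribution. Over the 1583 genes with at least 20 UMIs in the members, 72 (4.55%) were at least 2-fold higher in Cd163l1 than in Trdc cells in both libraries, a rule chosen after first results had been seen. Among them were Cdk14, a cyclin-dependent kinase (304 and 261 CPM in Cd163l1 cells and 0 in Trdc cells), Fgl2, a fibrinogen-like protein (548 and 522 CPM, against 22.7 and 24.4 CPM), and Rora, a nuclear receptor of type 17 cells (608 and 557 CPM, against 114 and 73.1 CPM). Icos, a costimulatory receptor, was at 791 and 383 CPM in Cd163l1 cells and 114 and 97.5 CPM in Trdc cells. Of the IL-17 list, 15 of 36 genes could be compared and 10 of them were among the 72, Cd163l1 itself included, while 0 were 2-fold higher in the Trdc cells of both libraries.

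Zbtb16 and Maf, which encode transcription factors, had few UMIs, and both were higher in Cd163l1 than in Trdc cells of each library. Zbtb16, which encodes the innate-like T cell factor PLZF, was at 122 and 157 CPM in RP-6306 and vehicle Cd163l1 cells and 0 and 24.4 CPM in Trdc cells. Maf, which helps set the IL-17 fate, was at 304 and 174 CPM in Cd163l1 cells and 22.7 and 24.4 CPM in Trdc cells. Il22, Il17re and Ccr6 of the list had 0 UMIs in the members.

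Trdc cells held genes of the interferon γ and killer programme. Of this list 8 of 30 genes could be compared, and 6 of them were at least 2-fold higher in Trdc cells than in Cd163l1 cells in both libraries, as 52 of all 1583 genes (3.28%) were, while 0 were 2-fold higher in Cd163l1 cells. Klrd1, which encodes CD94 of an NK receptor pair, had 0 and 1 UMIs in Cd163l1 cells and 19 and 14 UMIs in Trdc cells of the RP-6306 and the vehicle library, in 10 of 17 and 7 of 16 Trdc cells. No cell that held Il1r1 or Il23r, 5 in the RP-6306 and 14 in the vehicle library, also held Klrd1.

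Ccl5, a chemokine that draws T cells, was at 243 and 453 CPM in Cd163l1 cells and at 2976 and 2925 CPM in Trdc cells. This was below the 5594 and 4715 CPM of NK cells and above the 252 and 322 CPM of CD8 T cells. Ly6c2, a surface protein of memory and effector T cells whose UMIs may be shared with its near copy Ly6c1, was at 304 and 174 CPM in Cd163l1 cells and 1045 and 683 CPM in Trdc cells. In vehicle Cd163l1 cells, all 26 UMIs of Ccl5 and all 10 of Ly6c2 came from the same 3 cells. Those 3 cells held no γ or δ gene, so their receptor is not shown by these counts. Nkg7, a granule protein, was at 183 and 104 CPM in Cd163l1 cells and 522 and 634 CPM in Trdc cells. Gzmb, granzyme B, had 0 and 7 UMIs in Cd163l1 cells and 7 and 14 UMIs in Trdc cells, with all 7 RP-6306 UMIs in 1 cell.

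Few transcripts of the effector products and master factors of this programme were seen. Ifng, interferon γ itself, was at 33.1 and 30.5 CPM in RP-6306 and vehicle members, against 156 and 97.1 CPM in NK cells, and had 0 UMIs in Cd163l1 cells. Tbx21 and Eomes, its transcription factors, were at 0 and 20.3 CPM and at 16.5 and 30.5 CPM in the members. Gzma, granzyme A, was at 0 and 10.2 CPM, against 3718 and 3318 CPM in NK cells. Ccl3 and Gzmk had 0 UMIs.

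Trdc cells also held more of several regulators. Ikzf2, which encodes the factor Helios, was at 60.8 and 157 CPM in Cd163l1 cells and 1386 and 853 CPM in Trdc cells. Myb had 0 UMIs in Cd163l1 cells and 18 and 7 in Trdc cells. Hdac9, a histone deacetylase, had 0 UMIs in Cd163l1 cells and 59 and 5 in Trdc cells, but 71.2% of the RP-6306 UMIs came from 1 cell.

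**Figure D3:**
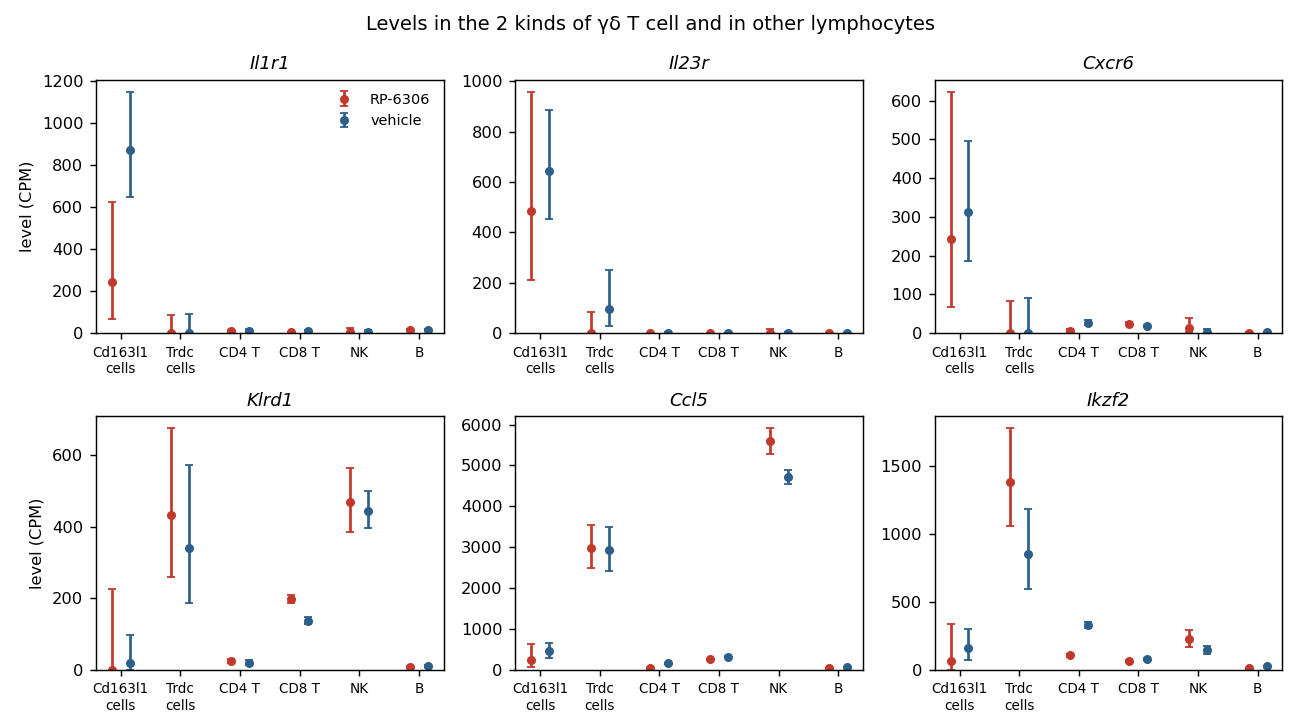
Levels (CPM, linear axes from 0) of 6 genes in Cd163l1 and Trdc γδ T cells beside CD4 T, CD8 T, NK and B cells, with RP-6306 in red left of vehicle in blue. Points are sums over the cells of 1 library and bars are exact 95% Poisson intervals: Il23r was at 487 and 644 CPM in Cd163l1 cells, and Ccl5 at 2976 and 2925 CPM in Trdc cells.

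The members were also set against CD4 and CD8 T cells of the same library, chosen to hold no Trdc or Cd163l1 UMI. Against their mean, the members held more of 74 of the 1583 genes (4.67%) by at least 2-fold in both libraries. Genes lower in the members are not counted, because the minimum of 20 UMIs was set on the members themselves. That minimum also favours the genes higher in the members. Beside the receptor and IL-17 genes these included Clnk, an adaptor of antigen receptor signalling, at 165 CPM in RP-6306 and 335 CPM in vehicle members, against at most 0.981 CPM in CD4 and CD8 T cells. NK cells held Clnk at 602 and 379 CPM. Igf1r, the receptor for insulin-like growth factor 1, was at 198 and 284 CPM in members, against 28.8 to 50.7 CPM in CD4 and CD8 T cells and 0 and 10.6 CPM in NK cells. Acvr2a, an activin receptor, was at 265 and 173 CPM in members, against 22.0 to 34.1 CPM in CD4 and CD8 T cells. Irak2, a kinase of IL-1 receptor signalling, was at 298 and 356 CPM in members, against 37.7 to 63.0 CPM there.

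Osbpl3, Atp2b4, a calcium pump, Gem, a small GTPase, Setbp1, St6galnac3, Ahnak and Cerk, ceramide kinase, completed the top 20 with log2 ratios over T cells of 1.92 to 3.82. Beside Cd4, Cd8a and Cd8b1, which the choice set, the 7 genes lowest against T cells were at least 2-fold lower in both libraries, among genes with 100 CPM or more in either class. They were St8sia1, a sialyltransferase, Dusp10, a phosphatase of stress kinases, Ccr7, Slfn1, Inpp4b, Mef2d, a transcription factor, and Sgms1, a sphingomyelin synthase. Ccr7, a homing receptor of naive T cells, was at 99.2 CPM in RP-6306 and 20.3 CPM in vehicle members, against 342 and 233 CPM in CD4 T cells. Inpp4b, a phosphatase of phosphoinositide signalling, was at 463 and 477 CPM in members, against 1882 and 1883 CPM in CD4 T cells and 1267 and 1185 CPM in CD8 T cells.

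Il17a, the cytokine that names the programme, was seen in the vehicle library and not in the RP-6306 members. It had 0 UMIs in 24 RP-6306 members and 36 UMIs in 7 of 36 vehicle members, which held 13, 12, 6, 2, 1, 1 and 1. Its level was 0 CPM (upper bound 61.0) and 366 CPM (256 to 506). With the RP-6306 sum set to the floor of 3 UMIs per library, the one-sided 95% limit of a count of 0, it was at least 7.37-fold lower after RP-6306. The two-sided exact interval of the log2 ratio, used for the other genes, reached up to -2.51, which is a smaller difference. Of the 7 vehicle cells 6 were Cd163l1 cells, which held 35 of the 36 UMIs, and 5 also held Tcrg-V6 or Trdv4. Of cells with Tcrg-V6 or Trdv4, 0 of 5 RP-6306 and 5 of 10 vehicle cells had Il17a. Thinned to 1000 UMIs, 0 RP-6306 and 6 vehicle members still had it.

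Outside the members the same held for the libraries as a whole. The RP-6306 library held 3 Il17a UMIs in 2 barcodes and the vehicle library 75 UMIs in 20 barcodes, 48% of them in members and 36 in other CD3-positive barcodes. In B cells Il17a was seen in 0 RP-6306 cells and 1 vehicle cell. Il17f, the partner cytokine, had 0 UMIs in RP-6306 members and 1 UMI in vehicle members, of 174 and 157 UMIs in the libraries, most of which lay in barcodes without CD3.

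The promoters of Il17a and Il23r are shown because both genes lay in Cd163l1 cells and the nuclear receptor RORα, encoded by Rora, is known to bind sites with the core AGGTCA. Both are RefSeq promoters on GRCm38.p6 of 250 bases before to 50 after the start, Il17a at chr1:20730655-20730954 on the plus strand and Il23r at chr6:67491806-67492105 on the minus strand, with matches to AGGTCA on either strand in capitals (TGACCT on the strand opposite).
Il17a: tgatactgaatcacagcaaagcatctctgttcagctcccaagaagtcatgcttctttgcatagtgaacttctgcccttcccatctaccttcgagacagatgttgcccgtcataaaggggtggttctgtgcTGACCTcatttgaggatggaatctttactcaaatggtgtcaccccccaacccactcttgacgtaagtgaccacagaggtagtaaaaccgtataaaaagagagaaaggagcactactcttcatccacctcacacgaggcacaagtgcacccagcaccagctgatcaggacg
Il23r: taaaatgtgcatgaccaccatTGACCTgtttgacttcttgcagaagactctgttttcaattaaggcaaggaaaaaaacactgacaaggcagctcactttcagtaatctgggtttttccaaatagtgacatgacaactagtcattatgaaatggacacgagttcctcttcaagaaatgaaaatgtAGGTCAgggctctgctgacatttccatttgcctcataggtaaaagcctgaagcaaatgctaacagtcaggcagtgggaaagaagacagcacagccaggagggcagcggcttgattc
Il17a had 1 match, with its first base at -120 from the start, and Il23r had 2, at -229 and -66. The 6 letters were found on either strand in 5340 of 32851 promoters of this length (16.26%). Of the 72 genes 2-fold higher in Cd163l1 cells in both libraries 57 had promoters in the RefSeq table, and 13 of their 79 promoters (16.46%) held them. Of 50 of the genes 2-fold higher in Trdc cells 39 had promoters there, and 6 of their 51 promoters (11.76%) held them. Counted by gene, the letters were found in 13 of 57 (22.81%) and 6 of 39 (15.38%), against 4900 of 27025 of all genes (18.13%). Clnk and Il17f each had 1 match, and none was in these windows of Il1r1, Cxcr6, Cd163l1, Cdk14, Fgl2, Tmem176a or Tmem176b.

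Taking all members together, RP-6306 and vehicle libraries differed by at least 2-fold in 102 genes that were higher (6.44% of 1583) and 92 that were lower (5.81%) after RP-6306. In all, 887 genes (56%) were higher and 696 (44%) lower, with a median log2 ratio, RP-6306 over vehicle on CPM + 1, of 0.08. With median-of-ratios scaling the counts past 2-fold were 83 higher and 113 lower. Of the 1583 genes, 478 had at least 50 UMIs. How many of the rest passed 2-fold by counting error alone is not given here. Because Cd163l1 and Trdc cells stood at 7 and 17 in the RP-6306 and 20 and 16 in the vehicle library, ratios are also given within them where at least 20 UMIs were left there, or with the UMIs where fewer were. The medians of all genes compared within them were -0.00 in Cd163l1 cells and 0.16 in Trdc cells. These values within Cd163l1 or Trdc cells were computed after the data were seen and rest on fewer UMIs. The vehicle Cd163l1 cells include the 7 with no γ or δ gene, and the RP-6306 ones include 0 such cells. Those 7 held 0 UMIs of Il23r and Trdv4, so they lower the vehicle CPM of both genes. Ratios within Cd163l1 cells without the 7 were not computed.

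The IL-17 list was lower after RP-6306: of 15 genes compared, 12 were lower and 3 higher, with 8 past the 2-fold mark downwards and 1 upwards, and the median log2 ratio was -1.45. These counts include Cd163l1, which the rule used, and Il17a, which reached 20 UMIs through the vehicle library alone. Without both, 10 of 13 genes were lower, 6 past the 2-fold mark, and the median was -0.61. Still counted there are Il1r1, Il23r, Tmem176a and Tmem176b, which also reached 20 UMIs through the vehicle library alone. They had 4, 8, 4 and 8 UMIs in RP-6306 and 50, 41, 26 and 46 UMIs in vehicle members. Apart from all these, the genes past the 2-fold mark downwards were Cxcr6 and Ccr2. They had 4 and 3 UMIs in RP-6306 and 18 and 19 UMIs in vehicle members, and the interval of Cxcr6 includes 0 (-3.49 to 0.14). List counts without all these genes were not made. Over all genes compared 44% were lower and 5.81% were past the 2-fold mark downwards. Within Cd163l1 cells the median of the list was -0.38. Il1r1 was at 66.2 CPM in RP-6306 and 508 CPM in vehicle members (log2 -2.92, -4.87 to -1.49), and within Cd163l1 cells the log2 ratio was -1.83 (-3.77 to -0.39). Il23r was at 132 and 416 CPM (-1.65, -2.96 to -0.54), and within Cd163l1 cells the ratio was -0.40 with an interval that includes 0 (-1.72 to 0.72). Cxcr6, Ccr2, Tmem176a and Tmem176b were lower too, at -1.45 to -1.98 over all members. Within Cd163l1 cells they were at -0.36, -0.69, -0.84 and -0.85, each with an interval that includes 0.

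Some genes of the same list were not lower. Stat3, the factor downstream of IL-23, was at 529 CPM in RP-6306 and 213 CPM in vehicle members (1.31, 0.47 to 2.18), and was higher within both Cd163l1 cells (0.99) and Trdc cells (1.67). Il7r, the receptor for the survival cytokine IL-7, was at 1571 and 792 CPM (0.99, 0.54 to 1.44), and at 0.64 and 1.57 within Cd163l1 and Trdc cells. Il7r was also higher in other T cells of the RP-6306 library, at 1267 and 694 CPM in CD4 and 1129 and 710 CPM in CD8 T cells, so the difference was not particular to γδ T cells. For Icos (298 and 264 CPM) and Il18r1 (248 and 254 CPM) the intervals of the log2 ratio include 0, also within Cd163l1 cells (1.04 and 1.14).

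**Figure D4:**
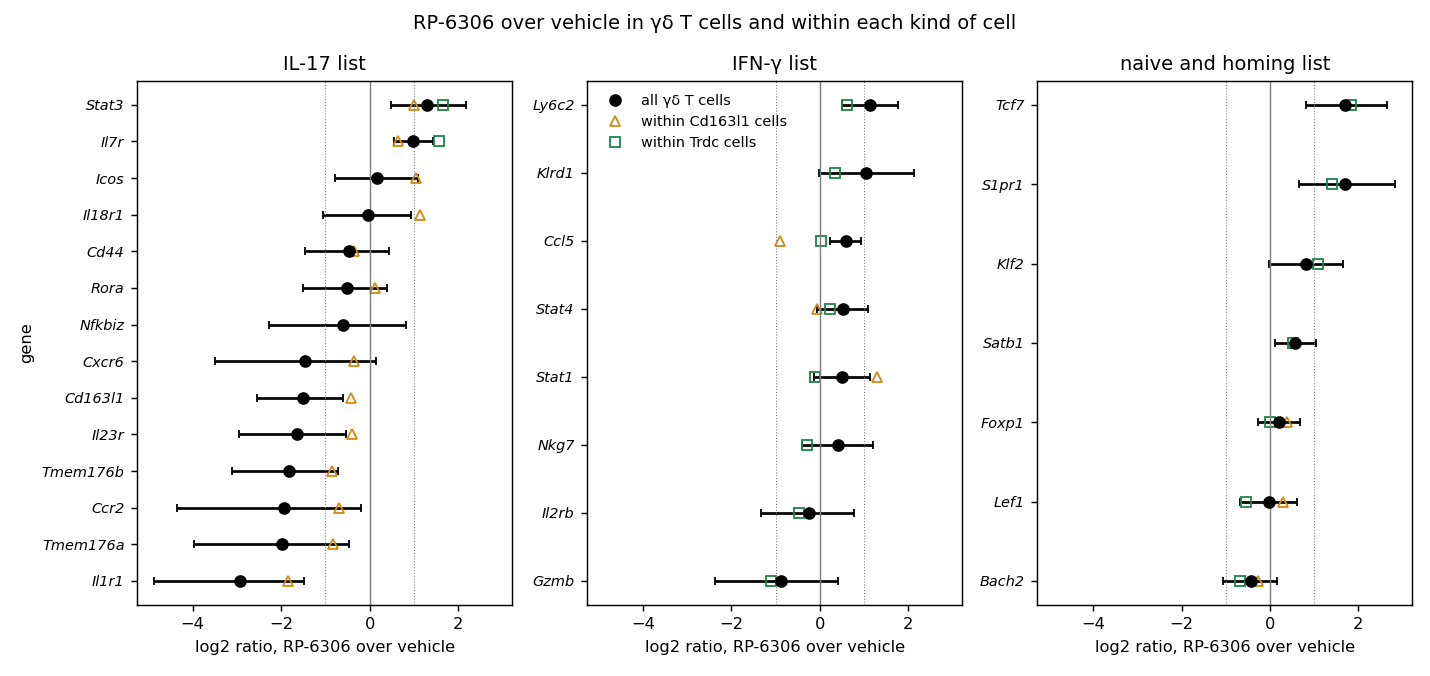
Log2 ratios, RP-6306 over vehicle, of genes from the IL-17, interferon γ and naive lists in all γδ T cells (black points, with 95% counting intervals) and within Cd163l1 cells (triangles) or Trdc cells (squares) where at least 20 UMIs allowed it. Dotted lines mark 2-fold, and Il17a, with 0 UMIs after RP-6306, is left out: Il23r was at -1.65 over all cells and -0.40 within Cd163l1 cells.

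The interferon γ list was at 0.51, with 6 of 8 genes higher after RP-6306, 2 of them past the 2-fold mark. Of all genes compared 56% were higher. Ly6c2 was at 844 CPM in RP-6306 and 386 CPM in vehicle members (1.13, 0.49 to 1.77), and Klrd1 at 314 and 152 CPM (1.04, -0.01 to 2.12). Within Trdc cells they were at 0.61 and 0.34, both with intervals that include 0. Within Cd163l1 and within Trdc cells the list was at -0.07 and -0.04, so its direction did not hold in either. Ccl5, at 2233 and 1483 CPM over all members (0.59, 0.24 to 0.94), was at 0.02 (-0.34 to 0.39) within Trdc cells.

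The list of genes of naive and recirculating T cells was higher after RP-6306, and its median was above 0 within both kinds of cell. Of 8 genes 6 were higher, 3 past the 2-fold mark, with a median of 0.69 over all members, 0.34 within Cd163l1 cells and 0.44 within Trdc cells. Over all genes compared 56% were higher and 6.44% were past that mark upwards, with medians of 0.08, -0.00 and 0.16. Tcf7, a factor of naive and memory T cells, had 34 UMIs in 18 of 24 RP-6306 members and 17 UMIs in 13 of 36 vehicle members, at 562 and 173 CPM (1.70, 0.82 to 2.64), with ratios of 1.29 and 1.84 within Cd163l1 and Trdc cells, the first from 7 and 10 UMIs. S1pr1, the receptor for leaving tissues, was at 397 and 122 CPM (1.70, 0.65 to 2.84), and within Trdc cells at 1.39 with an interval that includes 0. Lef1 and Bach2 of the same list were at -0.03 and -0.43. Other T cells of the RP-6306 library held more of this list too: its 16 genes summed to 5657 CPM in RP-6306 and 4114 CPM in vehicle members, to 8647 and 6954 CPM in CD4 T cells and to 7499 and 6756 CPM in CD8 T cells. In CD4 T cells Tcf7 was at 618 and 463 CPM, S1pr1 at 406 and 286 CPM and Klf2, a factor that keeps T cells circulating, at 622 and 349 CPM. Whether the members differed more than these cells was not tested.

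Among single genes, Ifi213, an interferon-inducible gene of the p200 family whose near copies may share UMIs, had the highest ratio among genes with at least 30 UMIs in at least 10 cells: 33 UMIs in 15 of 24 RP-6306 members and 10 UMIs in 9 of 36 vehicle members, 546 and 102 CPM (2.41, 1.37 to 3.61). Within Trdc cells the ratio was 1.58, and Cd163l1 cells held 4 and 1 UMIs. CD4 T cells held it at 294 and 224 CPM and CD8 T cells at 353 and 263 CPM. The interferon-stimulated list was at 0.59, with 7 of 8 genes higher, against 56% of all genes compared, and Ifi213 was its 1 member past the 2-fold mark. Itga4, the α4 integrin, was at 860 and 183 CPM (2.23, 1.44 to 3.10), with ratios of 1.80 (7 and 7 UMIs) and 1.93 within Cd163l1 and Trdc cells, and Neurl3, a ubiquitin ligase, at 893 and 244 CPM (1.87, 1.15 to 2.63), with 1.80 and 1.70. Both thus differed in each kind of cell, while CD4 T cells held Itga4 at 328 and 265 CPM and Neurl3 at 162 and 137 CPM.

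Ust, a sulfotransferase, was at 496 and 142 CPM (1.80, 0.84 to 2.83), Ss18, a chromatin remodelling subunit, at 496 and 152 CPM, and Eif2ak3, the stress kinase PERK, at 496 and 173 CPM. Ust was at 3.02 and 0.89 within Cd163l1 and Trdc cells. Ss18 and Eif2ak3 were at 2.01 and 1.24 within Trdc cells, and Cd163l1 cells held 4 and 9 UMIs of Ss18 and 2 and 6 UMIs of Eif2ak3. Btg2, an antiproliferative gene that responds to dissociation, was at 810 and 284 CPM (1.51, 0.81 to 2.24), with 1.54 and 1.66 within Cd163l1 and Trdc cells, and was also higher in CD4 T cells (669 and 310 CPM), CD8 T cells (375 and 225 CPM) and B cells (692 and 359 CPM) of the RP-6306 library. Rras2, Tm9sf3 and H2-Q7, a class I gene with near copies, were at 1.22 to 1.31. Rras2 and Tm9sf3 were at 1.00 and 1.53 within Trdc cells, and at -0.00 and -0.65 within Cd163l1 cells, which held 2 and 7 UMIs of Rras2 and 2 and 11 UMIs of Tm9sf3. H2-Q7 was at 1.51 and 0.90 within Cd163l1 and Trdc cells. The dissociation list summed to 7145 CPM in RP-6306 and 6420 CPM in vehicle members, with 10 of 16 genes higher and a median of 0.22, and its part in these results was not tested.

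S100a4, a calcium-binding protein of memory and tissue T cells, had the lowest ratio among genes with at least 30 UMIs in at least 10 vehicle cells: 2 UMIs in 2 RP-6306 members and 34 UMIs in 12 vehicle members, 33.1 and 345 CPM (-3.35, -6.49 to -1.42), and -3.22 within Cd163l1 cells. The other genes on the lower side were Gpx1, a glutathione peroxidase (99.2 and 315 CPM, -1.66, and -2.76 within Cd163l1 cells), Vim, vimentin (248 and 650 CPM, -1.39, with -0.43 and -1.86 within Cd163l1 and Trdc cells), Smap2, Esyt2, Adgre5, which encodes the adhesion receptor CD97, and the glycolytic enzymes Pkm and Gapdh. Gapdh was at 165 and 396 CPM (-1.25, -2.43 to -0.23), at -2.98 within Cd163l1 cells and at -0.39 within Trdc cells. Of the 5 other genes compared in the list of glycolysis and related metabolism 2 were higher and 3 lower, with none past the 2-fold mark. CD4 T cells held Gapdh at 316 and 362 CPM and CD8 T cells at 269 and 262 CPM.

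Genes of receptor signalling and checkpoints showed no common direction. The CD3 and signalling list had 5 higher and 6 lower of 11 genes, and its median, near 0, was -0.08 with median-of-ratios scaling and 0.13 with at least 50 UMIs per gene. Cd3d was at 496 CPM in RP-6306 and 498 CPM in vehicle members. Of the 3 checkpoint genes compared, Ctla4 was at 215 and 234 CPM, Tox, a factor of chronic stimulation, at 480 and 569 CPM, and Cd274, which encodes PD-L1, at 82.7 and 152 CPM, each with an interval that includes 0 on the log2 scale. Lag3 had 0 UMIs. Txnip, a redox regulator, was at 265 and 549 CPM (-1.05, -1.96 to -0.22), with -0.56 and -1.30 within Cd163l1 and Trdc cells, while CD4 T cells held it at 1174 and 843 CPM and CD8 T cells at 901 and 758 CPM. Rgs1, a brake on chemokine signals, was at 860 and 386 CPM (1.15, 0.52 to 1.80), with 1.74 and 0.85 within Cd163l1 and Trdc cells.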

How the data were processed

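The deposited matrices hold raw counts, whole numbers of UMIs per gene and barcode, per the file headers and values. Cell Ranger 2.1.1 and mm10 are named in the submitters' processing notes, without their roles, and the sources used here do not state how barcodes were called as cells. Gene IDs matched GENCODE M21 for 32235 of 32285 genes. From these counts, computed here with Python 3.11.15, numpy 2.4.6, scipy 1.17.1 and pandas 2.3.3, members were selected by the stated thresholds, with no doublet caller. Each class's UMIs were added up within a library and expressed as CPM. Log2 ratios used CPM + 1, and genes needed 20 UMIs over both libraries. Ratio intervals are exact conditional binomial ones, share intervals Clopper-Pearson. CD4 T, CD8 T, NK and B cells were gated on Cd4, on Cd8a and Cd8b1, on Ncr1 and Klre1 without CD3, and on Cd79a, Ms4a1 and Ebf1. Named genes were the rule genes, members of fixed lists, the 12 highest and 12 lowest ratios among genes with 50 CPM, 30 UMIs and 10 cells, and the 20 highest and 10 lowest against T cells. Members and lists were chosen with earlier results of these data known. The ratio step was tested on simulated data. Some genes enter the counts over their lists but are not reported here by name or drawn.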

Additional observations from a re-analysis of the deposited data

How the results depend on the processing

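Of 39 named genes past 2-fold, no ratio changed sign under the alternatives run where the gene kept its minimum of UMIs (488 of 488 values). Below that minimum of 20 UMIs, Rras2, Tm9sf3 and Klrd1 had ratios of the opposite sign within Cd163l1 cells. These genes were picked for being past 2-fold in the same cells, so a kept sign is no separate support. Limits of at least 1000 UMIs and at most 10% mitochondrial UMIs kept every member, so they could not change a ratio. A limit on myeloid UMIs left the 1583 genes compared and their median as they were. Requiring Trdc at 3 or Cd163l1 at 2 UMIs gave γδ shares of T cells of 0.273% (RP-6306) and 0.526% (vehicle), with 53 genes at least 2-fold higher and 61 lower in place of 102 and 92. Thinning to 1000 UMIs gave an RP-6306 share of 0.151%, a log2 ratio of the shares of -2.24 in place of -0.91, and 10 higher and 18 lower genes. The counts were 20 and 12 of 478 genes with at least 50 UMIs per gene, and 2080 and 3150 of 10129 with no minimum. They were 49 and 58 of 613 genes within Cd163l1 cells and 66 and 30 of 726 within Trdc cells. Leaving out the top cell of each gene gave 150 lower genes, and the cause was not tested. Median-of-ratios scaling moved all log2 ratios by 0.08 and gave 83 higher and 113 lower genes. Thinned cells gave no list medians, and Trdc cells none for the IL-17 list, since too few genes were left. No paired analysis was possible because the groups share only 1 replicate number. With 7 to 20 cells per kind and library, 1 cell can carry much of a gene's UMIs, and the log2 interval of Il23r, with 8 and 41 UMIs, ran from -2.96 to -0.54.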

Other observations

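Beyond the lists above, genes of cytokine receptors were mixed: of 10 compared, 4 were higher and 6 lower after RP-6306, with 3 past the 2-fold mark, all downwards. Il2ra, the α chain of the IL-2 receptor, was at 82.7 CPM in RP-6306 and 284 CPM in vehicle members, while Ifngr1, a chain of the interferon γ receptor, was at 1886 and 1279.9 CPM. Of 9 tissue residence and activation genes 5 were higher and 4 lower. Cd69, an early activation marker, was at 463 and 630 CPM, Runx3, a factor of resident and cytotoxic T cells, at 232 and 102 CPM and Gpr183, an oxysterol receptor, at 82.7 and 244 CPM. The 5 costimulatory genes compared all lay within 2-fold.

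Of the other cytokines of the list, Ltb, lymphotoxin β, was seen in the most cells, with 12 UMIs in 10 RP-6306 and 35 UMIs in 19 vehicle members, at 198 and 356 CPM. Tgfb1, transforming growth factor β1, was at 116 and 81.3 CPM, and Il22, Il21, Il10, Il4, Il13 and Il2 had 0 UMIs in both. S phase genes summed to 579 and 569 CPM and G2/M genes to 562 and 447 CPM.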
